A study of Mus musculus with 6 samples.

Results

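The comparison described here sets podocytes of shTug1 clone 3 against podocytes of shControl, both taken after 10 days of differentiation. Its members were chosen by sample title, which gave 2 arrays of clone 3 and 2 of shControl, 4 of the 6 arrays in the series. The other 2 arrays hold shTug1 clone 2, and they enter the model's estimate of spread and the comparisons that name them. All groups were conditionally immortalised mouse podocytes that carry a temperature-sensitive SV40 T antigen, so the control cells carry that transgene too. They proliferated at the permissive temperature and were then warmed to differentiate in low-glucose medium. Every group had received a lentiviral pGIPZ vector, with a scrambled hairpin in shControl and, in clone 3, one directed at Tug1, a long noncoding RNA. A clone is a single transduced line, so what sets clone 3 apart and what the hairpin does cannot be told apart from its arrays alone. The labels give no hairpin sequence, no sex of the donor mouse and no passage.

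Podocytes are epithelial cells of the kidney filter that enclose the capillaries of the glomerulus. Their interdigitating foot processes are joined by the slit diaphragm, a junction built on nephrin that holds back plasma protein, and they share with the endothelium a basement membrane of laminin and type IV collagen. The transcription factors Wt1 and Lmx1b and the forkhead protein Foxc1 maintain this state. Tug1 is a nuclear-enriched RNA that has been linked in podocytes to the coactivator PGC-1α (Ppargc1a) and through it to mitochondrial function. Cultured podocyte lines keep only part of the programme of the cells in the kidney.

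Each array reports, for each gene, the log2 of the Agilent processed Cy3 intensity minus the log2 of that array's 75th percentile, and all levels below are on this scale. The 75th percentile intensity ranged from 324.3 to 363.3 in shControl and from 569.2 to 831.6 in clone 3. Between 58.2% and 68.0% of probes were well above background on each of the 6 arrays, and 0 spots were saturated. The pair of clone 3 arrays correlated at 0.990 over the genes tested and the pair of shControl arrays at 0.964. The median within-group SD of a gene was 0.51 in shControl and 0.17 in clone 3. Along the leading principal component, which held 70.3% of the variance, shControl replicate 1 lay at −175.2 and replicate 2 at −56.1, with clone 3 at 5.54 and 26.2, so the controls were farther from each other than replicate 2 was from clone 3 replicate 1. Both shControl arrays shared 1 slide and both clone 3 arrays lay on the other, so slide and clone cannot be told apart. With 2 arrays against 2, an exact permutation test cannot give a p below 0.333, so only the limma model over all genes was used.

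Tug1 itself was not significantly lower in clone 3. Its one probe measured on all 4 arrays read −2.88 and −2.49 in shControl and −3.10 and −3.23 in clone 3. Both clone 3 arrays were the lower ones, by a margin smaller than the gap between the controls. The log2 difference was −0.48 (SE 0.34, limma adjusted p = 0.321), a 1.40-fold lower signal and almost the shift of the median gene, which was −0.46. A second probe was well above background on 0 of 2 shControl arrays and 1 of 2 clone 3 arrays, reading −6.21 and −6.38 in shControl and −6.36 and −3.58 in clone 3. The third was dim on all 6 arrays. In the authors' deposited log2 table Tug1 was at 6.06 and 6.80 in shControl and 6.21 and 6.09 in clone 3, and there the groups overlapped. No probe therefore showed a passing reduction of the targeted RNA, and the arrays labelled clone 2 read higher than shControl (−1.86 and −1.88), against their label.

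Of 21474 genes tested, 934 were higher in clone 3 (4.35% of those tested) and 1004 were lower (4.68%) at a limma adjusted p under 0.05. At an unadjusted p under 0.05 the number in either direction was 7689 (35.8%). Both clone 3 arrays lay above both controls for 3677 genes (17.1%) and below both for 10275 (47.8%). Of the 934 rises, 577 were well above background on all 4 arrays, while 213 were so on no shControl array and 144 on only 1. Of the 1004 falls, 747 were well above background on all 4 arrays and 152 on no clone 3 array. Dim genes passed in both directions. Of the 3126 genes with a mean log2 signal below −4, 158 rose and 226 fell. The bright end of the scale moved down as a block. The 1082 genes with a mean log2 signal above 6 had a median difference of −0.89, against −0.07 for the same genes after quantile normalization. Of the passing genes, 48.2% were higher in clone 3, against 58.9% after quantile normalization, 60.4% after median scaling, 20.9% with a normexp background correction, 33.5% under a stricter filter and 23.4% without shControl replicate 2. Quantile normalization gave 994 rises (4.63%) and 693 falls (3.23%). Leaving out shControl replicate 1 gave 811 (3.72%) and 860 (3.95%), and leaving out replicate 2 gave 2748 (12.4%) and 8978 (40.5%). There were 448 rises and 569 falls that passed under quantile normalization, median scaling and normexp as well. Every pass was lost when either clone 3 array was left out, as the closing section details.

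**Figure D1:**
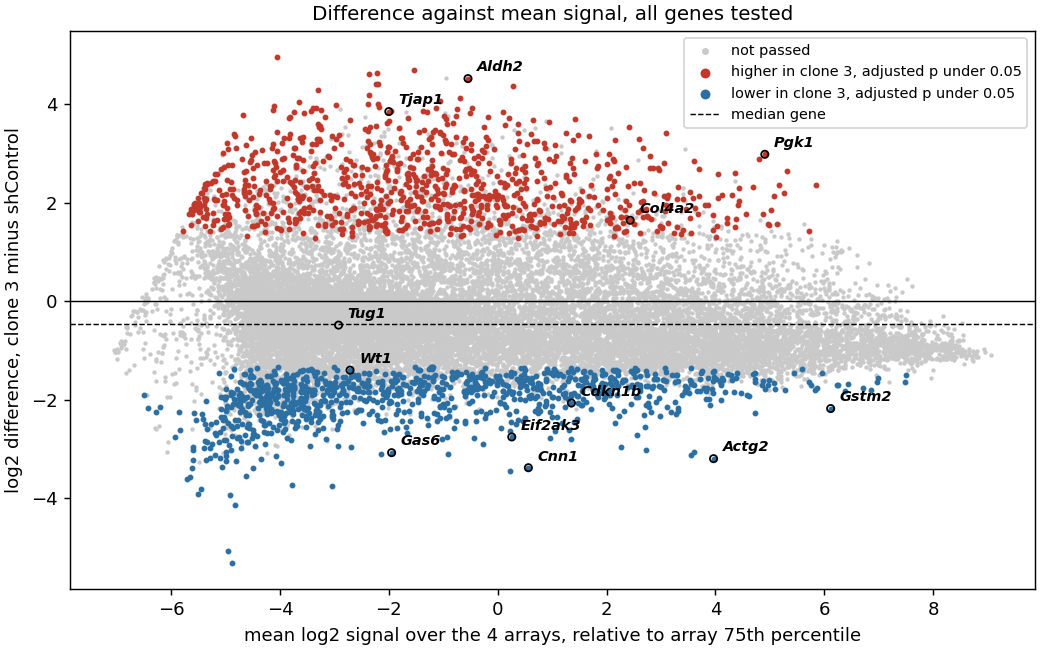
Log2 difference of clone 3 minus shControl (vertical axis) against the mean log2 signal over the 4 arrays relative to each array's 75th percentile (horizontal axis), 1 point a gene, with the 934 rises in red and the 1004 falls in blue. The dashed line marks the median gene at −0.46. The cloud bends below it at the bright end, Tug1 lies beside it, and Pgk1 stands among the few bright rises.

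The largest rises measured on all 4 arrays were led by Aldh2. Aldh2, the mitochondrial aldehyde dehydrogenase, read −3.79 and −1.81 in shControl and 1.20 and 2.22 in clone 3. The groups did not overlap, although the controls differed from each other more than the clone 3 arrays did. Its rise was 4.52 (SE 0.65, 22.9-fold, limma adjusted p = 0.0249). Tjap1, a protein of tight junctions and the Golgi, was the tightest of them, at −3.95 and −3.90 in shControl against −0.11 and −0.05 in clone 3. It rose by 3.85 (SE 0.32, 14.4-fold, limma adjusted p = 0.0230), with both pairs close together. Apmap, a membrane glycoprotein of adipocytes, rose from −3.49 and −2.02 to 1.20 and 1.52, and Trap1, the HSP90 chaperone of mitochondria, from −3.59 and −1.88 to 0.62 and 1.10. Cops3, a subunit of the COP9 signalosome, went from −2.72 and −0.56 to 2.03 and 2.11.

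In all 12 of the largest rises shControl replicate 1 was the lowest array and replicate 2 lay between it and clone 3. The focal adhesion gene Tns3 showed this most, at −3.69 and −0.13 in shControl and 2.32 and 2.59 in clone 3, and a second Tns3 probe measured on all 4 arrays differed by 0.15. The autophagy receptor Sqstm1 read −2.62 and 0.23 against 1.86 and 3.10. Eif3b, Ivl (involucrin, a protein of the cornified envelope), Gss (glutathione synthetase), Dstn (the actin-depolymerising protein destrin) and Cdr2 rose by 3.92, 3.90, 3.81, 3.70 and 3.63. Without shControl replicate 1, Eif3b, Ivl, Dstn, Sqstm1 and Cdr2 no longer passed (limma adjusted p from 0.0507 to 0.0799), while the other 7 did. Of the 12 rises, 7 passed under quantile normalization, median scaling and normexp alike. Among all passing genes, 763 of the 934 rises and 861 of the 1004 falls had the nearer control in replicate 2.

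The largest falls measured on all 4 arrays were led by Cysltr1. Cysltr1, a receptor for cysteinyl leukotrienes, read 2.29 and 1.61 in shControl and −1.79 and −1.20 in clone 3, a fall of 3.44 (SE 0.39, limma adjusted p = 0.0249). A weaker second probe did not share it (−5.45 and −3.19 against −3.91 and −4.34). Cnn1, the smooth muscle calponin, fell from 2.93 and 1.57 to −1.04 and −1.21 (10.4-fold). Actg2, the enteric smooth muscle actin, fell from 6.10 and 5.02 to 2.42 and 2.33, by 3.19 (SE 0.42, limma adjusted p = 0.0249), and by 2.59 after quantile normalization. Genes with a mean log2 signal from 0 to 2, where Cnn1 lies, had a median difference of −0.44. For those from 2 to 4, where Actg2 lies, it was −0.66.

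Gas6, the vitamin K-dependent ligand of the TAM receptor kinases, read −0.19 and −0.64 in shControl and −3.36 and −3.61 in clone 3. Fgf1, the acidic fibroblast growth factor, went from 1.59 and 0.75 to −1.65 and −1.80, though a second, dimmer probe differed by only −0.12. Limch1, an activator of non-muscle myosin II, was at 2.50 and 2.17 against −0.44 and −0.41, and its second probe also read lower, by −1.51. Apoc1, an apolipoprotein, fell by 2.76, the C-type lectin gene Clec18a by 2.96 (a second probe differed by 0.11), Nrip3 by 3.09, the FERM domain gene Frmd7 by 2.68 and Plppr3 by 2.66. All 12 falls passed under quantile normalization, median scaling and normexp, and without either shControl array.

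**Figure D2:**
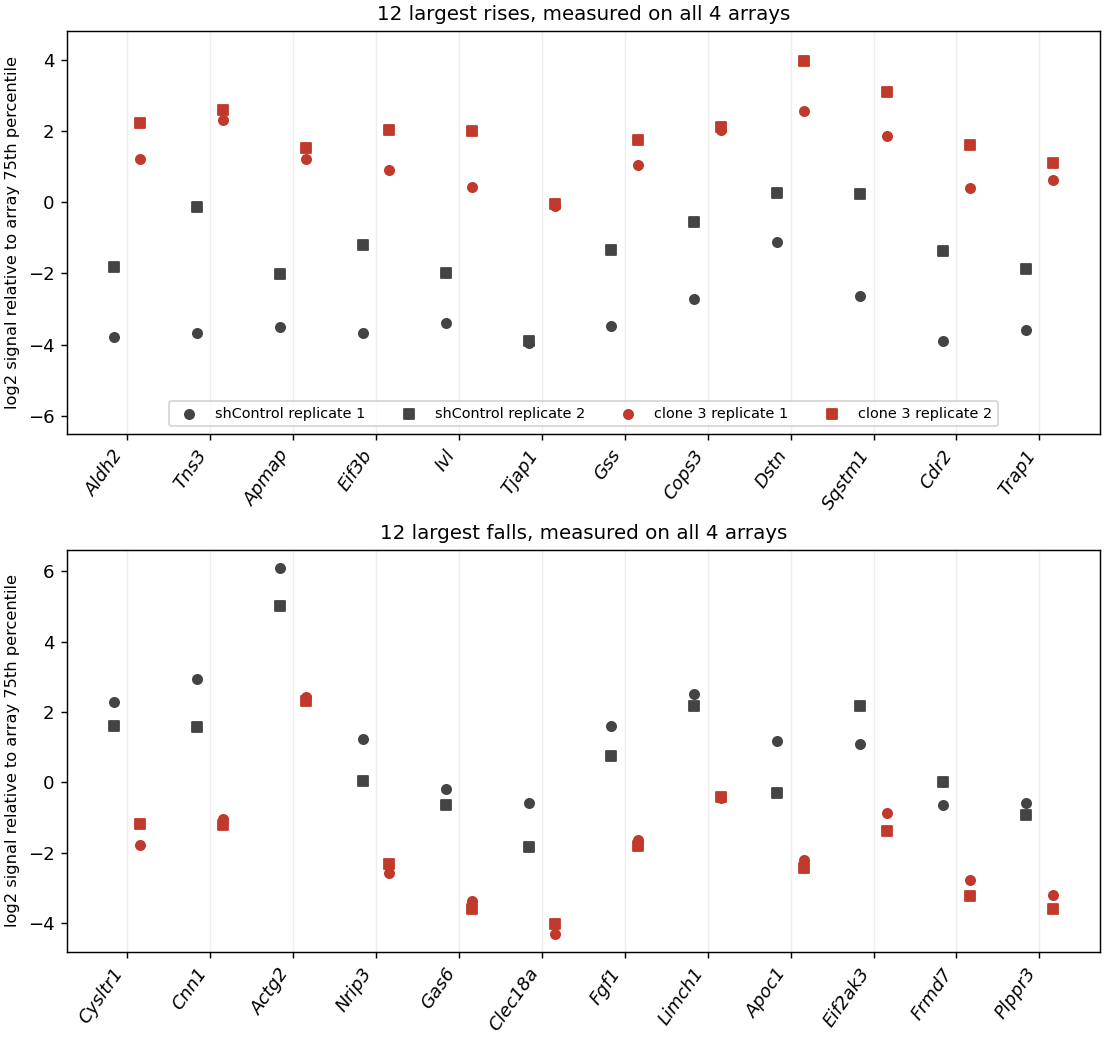
Level of the 12 largest rises (upper panel) and 12 largest falls (lower panel) on each of the 4 arrays, as log2 signal relative to the array's 75th percentile; grey symbols are shControl, red symbols clone 3, circles replicate 1 and squares replicate 2. In the rises the grey circle mostly lies below the grey square, whereas Tjap1 has both pairs together; in the falls the red pairs are close together.

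Some genes were well above background on one side only, so that their difference is a lower bound set against the dimmest measured signal of the other arrays. Inka2, an inhibitor of the kinase Pak4, was at least 19.1-fold higher in clone 3 by its brightest probe (−4.63 and −4.69 against −0.62 and 0.50), whereas another probe measured on all 4 arrays read −0.46 in the same comparison. Atp6v1h, a subunit of the lysosomal proton pump, was at least 8.92-fold higher, the Integrator subunit Ints8 at least 7.14-fold and the p53-induced gene Ei24 at least 7.10-fold. In the other direction Rnf182, a ubiquitin ligase, was at least 10.8-fold lower in clone 3, at −0.80 and −3.64 in shControl and −7.26 and −7.81 in clone 3. Anpep, the brush-border aminopeptidase N, was at least 9.53-fold lower, Gm136 at least 9.38-fold and the kinesin Kif1a at least 7.45-fold. Kif1a did not pass without shControl replicate 1 (limma adjusted p = 0.150).

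Podocyte genes that passed were all lower in clone 3. For this and every list below, the shares over all genes were 4.35% higher and 4.68% lower. Of 11 podocyte transcription factors tested 3 fell and 0 rose, with a median log2 difference of −1.37 against −0.46 over all genes, and −1.15 against −0.15 after quantile normalization. Lmx1b, the LIM homeodomain factor whose mutation causes nail-patella syndrome, read −0.08 and −0.49 in shControl and −2.63 and −2.46 in clone 3. Both clone 3 arrays were well below both controls, and the fall was 2.26 (SE 0.38, limma adjusted p = 0.0272). Foxc1 fell from 3.97 and 2.92 to 1.13 and 1.30, by 2.23 (SE 0.42, limma adjusted p = 0.0313). Wt1, the defining podocyte transcription factor, read −1.98 and −2.04 in shControl and −3.63 and −3.20 in clone 3, a 2.63-fold fall that only just passed (limma adjusted p = 0.0476) and did not pass without shControl replicate 1 (0.0616). Foxc2 differed by −0.39.

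Of 27 slit diaphragm and foot process genes tested, 3 fell, 0 rose and 24 did not pass, with a median of −0.87. Kirrel, which encodes the nephrin-like protein Neph1, read 1.87 and 3.43 in shControl and 0.65 and −0.14 in clone 3, a fall of 2.39 (SE 0.55, limma adjusted p = 0.0412), while its second probe differed by −0.34. Magi2, a scaffold of the slit diaphragm, went from −2.72 and −3.35 to −5.14 and −5.46, with 1 of 2 clone 3 arrays well above background. Npnt, the basement membrane ligand nephronectin, fell from −0.82 and −0.67 to −2.08 and −2.21. These falls were separate on all 4 arrays.

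Nephrin, synaptopodin, Cd2ap and Actn4 did not pass. Nephrin (Nphs1) read −2.34 and −3.71 in shControl and −3.68 and −3.89 in clone 3, where one control lay between the clone 3 arrays. Synaptopodin (Synpo), an actin-binding protein of foot processes, read 2.97 and 1.69 against 1.53 and 1.39, with a difference of −0.87 (limma adjusted p = 0.206), and its second probe went the other way, at 2.03. The adaptor Cd2ap and the actin crosslinker Actn4 differed by −1.35 and −0.87 (limma adjusted p = 0.0650 and 0.111). Genes with a mean log2 signal above 6, such as Actn4, had a median difference of −0.89. Those from 2 to 4, where Cd2ap lies, had a median of −0.66, so Cd2ap read lower by more than genes of its level.

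The labelled cell type was checked against its markers. Of 32 slit diaphragm and foot process genes on the array, 25 were well above background on all 4 arrays and 5 on none, namely Kirrel2, Podxl (podocalyxin), Trpc6, Arhgap24 and Sema3g. Among genes of other kidney cells, the tubular cadherin Cdh16 was bright in every array, at 8.28 and 7.24 in shControl and 6.14 and 5.78 in clone 3, and fell by 1.80 (limma adjusted p = 0.0437, 0.0562 without shControl replicate 1). Of 13 tubular and parietal markers tested 3 fell (Anpep, Umod and Cdh16), of 13 immune markers 2 fell (Csf1r and Itgam), of 10 endothelial markers 1 fell (Esam), and of 11 mesangial and stromal markers 0 passed by limma (4 at an unadjusted p under 0.05); 0 rose in any of these lists. Over all genes 4.35% rose and 4.68% fell. The log2 of each list's summed signal, in units of the array's 75th percentile, was 8.03 to 8.71 in shControl and 6.44 to 6.97 in clone 3 for tubular and parietal markers. It was 4.52 to 5.45 and 3.61 to 3.80 for immune markers, 2.75 to 2.89 and 1.84 to 2.02 for endothelial markers, and 9.12 to 9.15 and 7.91 to 8.33 for mesangial and stromal markers. The slit diaphragm list went the same way, from 9.63 to 10.2 in shControl down to 8.69 to 8.94. Many markers of other cell types were also well above background on all 4 arrays. They were 9 of 18 tubular and parietal, 10 of 15 endothelial, 12 of 19 immune and 9 of 15 mesangial and stromal markers. Over all probes the share on a single array was 58.2% to 68.0%. Markers that were well above background on none of the 4 arrays were Slc12a1, Calb1, Havcr1 and Epcam for tubules, Cdh5, Tek, Tie1, Emcn and Erg for endothelium, Lyz2, Cd3g and Ncr1 for immune cells, and Pdgfra and Des for mesangium and stroma. In bulk RNA, fewer cells of a type and less RNA per cell cannot be told apart, and the part of other cell types in the results was not tested.

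**Figure D3:**
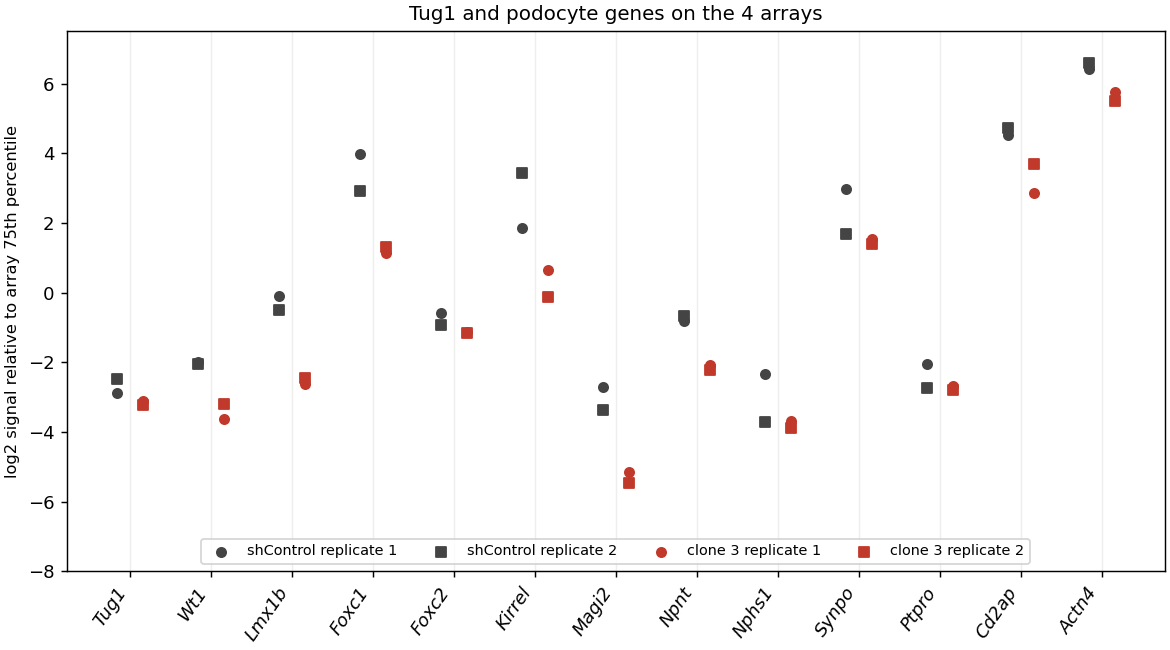
Level of Tug1 and 12 podocyte genes on the 4 arrays, as log2 signal relative to the array's 75th percentile; grey symbols are shControl, red symbols clone 3, circles replicate 1 and squares replicate 2. The red pair lies clearly below the grey pair for Wt1, Lmx1b, Foxc1, Magi2 and Npnt, and the pairs overlap for Nphs1 and Ptpro.

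A ligand and its receptor moved in opposite directions. While Gas6 fell by 3.07 (SE 0.35, limma adjusted p = 0.0249), Axl, the receptor kinase it binds with highest affinity, read 1.91 and 2.59 in shControl and 4.11 and 4.54 in clone 3. Axl rose by 2.08 (SE 0.39, 4.22-fold, limma adjusted p = 0.0310), and each has a single probe on the array. The other TAM genes did not pass. The second ligand, protein S (Pros1), was at −0.71 and 1.89 against 2.51 and 2.55, the receptor Tyro3 at 1.54 and 0.51 against 0.38 and −0.04, and Mertk overlapped. Of 43 growth factor and receptor genes tested Axl was the single rise, and the 4 falls were Gas6, Fgf1, Fgfr3 and Igfbp7. Fgfr3 went from 2.17 and 0.86 to −0.54 and −0.45, and its second probe differed by −0.99. Fgf1 and Fgfr3, a ligand and a receptor of the same family, were thus both lower.

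The chains of type IV collagen, the network of basement membranes, also differed in direction. The α2 chain gene Col4a2 read 1.33 and 1.91 in shControl and 2.99 and 3.52 in clone 3, and rose by 1.64 (SE 0.40, limma adjusted p = 0.0451). Its partner Col4a1, made from the same bidirectional promoter, read 2.13 and 2.78 against 4.05 and 4.48 and narrowly did not pass (limma adjusted p = 0.0511). Col4a4, a chain of the mature glomerular basement membrane that podocytes make, read 2.54 and 2.30 against 0.64 and 0.75, a fall of 1.72 (SE 0.34, limma adjusted p = 0.0328). The other mature chains Col4a3 and Col4a5 were also below both controls, at −0.76 and −1.58, without passing. Of the Col4a chains all but Col4a1 and Col4a2 therefore read lower, Col4a6 included (−0.87). A second Col4a4 probe, not well above background in shControl, differed by 0.46, and Col4a2 did not pass without shControl replicate 1 (0.0830).

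Among the 34 collagen and laminin genes tested, Col4a2 rose and Col4a4 and Lama1 fell, with a median of −0.90. Lama1, the laminin α1 chain of early basement membranes, went from −1.79 and −2.19 to −5.27 and −4.57, with 1 of 2 clone 3 arrays well above background. Integrin genes passed in both directions. Itga5, the fibronectin receptor subunit, rose from −2.53 and −1.94 to 0.15 and 0.54, and Itga9 fell from 3.86 and 2.84 to 1.71 and 1.51. With them Tns3 rose while its relative Tns1 (4.04 and 3.77 against 2.35 and 2.23) and the integrin activator Fermt2 (kindlin-2) fell. In total 2 of 28 adhesion genes rose and 3 fell, against 4.35% and 4.68% of all genes.

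In matrix remodelling 2 of 44 genes rose and 2 fell, shares close to the 4.35% and 4.68% of all genes. Loxl4, a collagen-crosslinking lysyl oxidase, had a close pair in each group, −1.10 and −1.07 in shControl and 1.18 and 1.46 in clone 3, and rose by 2.40 (SE 0.33, limma adjusted p = 0.0249). The aggrecanase Adamts5 fell by 1.52, with a second probe at 0.05, and the protease inhibitor Serpine2 was at least 3.83-fold lower. Neither fall passed without shControl replicate 1. The called rise of Mmp2 (gelatinase A) rested on shControl arrays that were both dim, at −6.37 and −6.71 against −4.81 and −4.36, which gives no bound above 1.

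The TGF-β pathway list had 2 rises and 2 falls in 33 genes, also not far from those shares. Inhba, the activin βA subunit, rose from −1.27 and 0.01 to 1.58 and 1.77, and the ubiquitin ligase Smurf1, which targets BMP-regulated SMADs, from −1.96 and −1.73 to −0.51 and −0.26. Bmp4 fell from 6.47 and 5.50 to 4.22 and 4.21 and Bmp2 from −1.83 and −1.79 to −3.25 and −3.38. Both bone morphogenetic proteins that passed were thus lower, while the activin subunit was higher. Bmp7, which antagonises TGF-β in the kidney, read lower at −1.26 but did not pass (limma adjusted p = 0.116).

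The 20 smooth muscle contractile genes tested had a median of −0.86 (−0.22 after quantile normalization). Beside Cnn1 and Actg2, the brightest members read lower without passing: Acta2 by −1.03 (9.06 and 9.08 against 8.25 and 7.82, limma adjusted p = 0.0816), Tagln by −1.18, and Myl9 by −1.22. Tpm2 was called higher from arrays that were dim in shControl (−6.33 and −6.63), and it gives no bound above 1. Among 36 genes of actin turnover 2 rose, near the 4.35% of all genes: Dstn and the twinfilin Twf2 (−3.51 and −2.19 against −0.18 and −0.36). Only Twf2 kept its pass without shControl replicate 1.

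**Figure D4:**
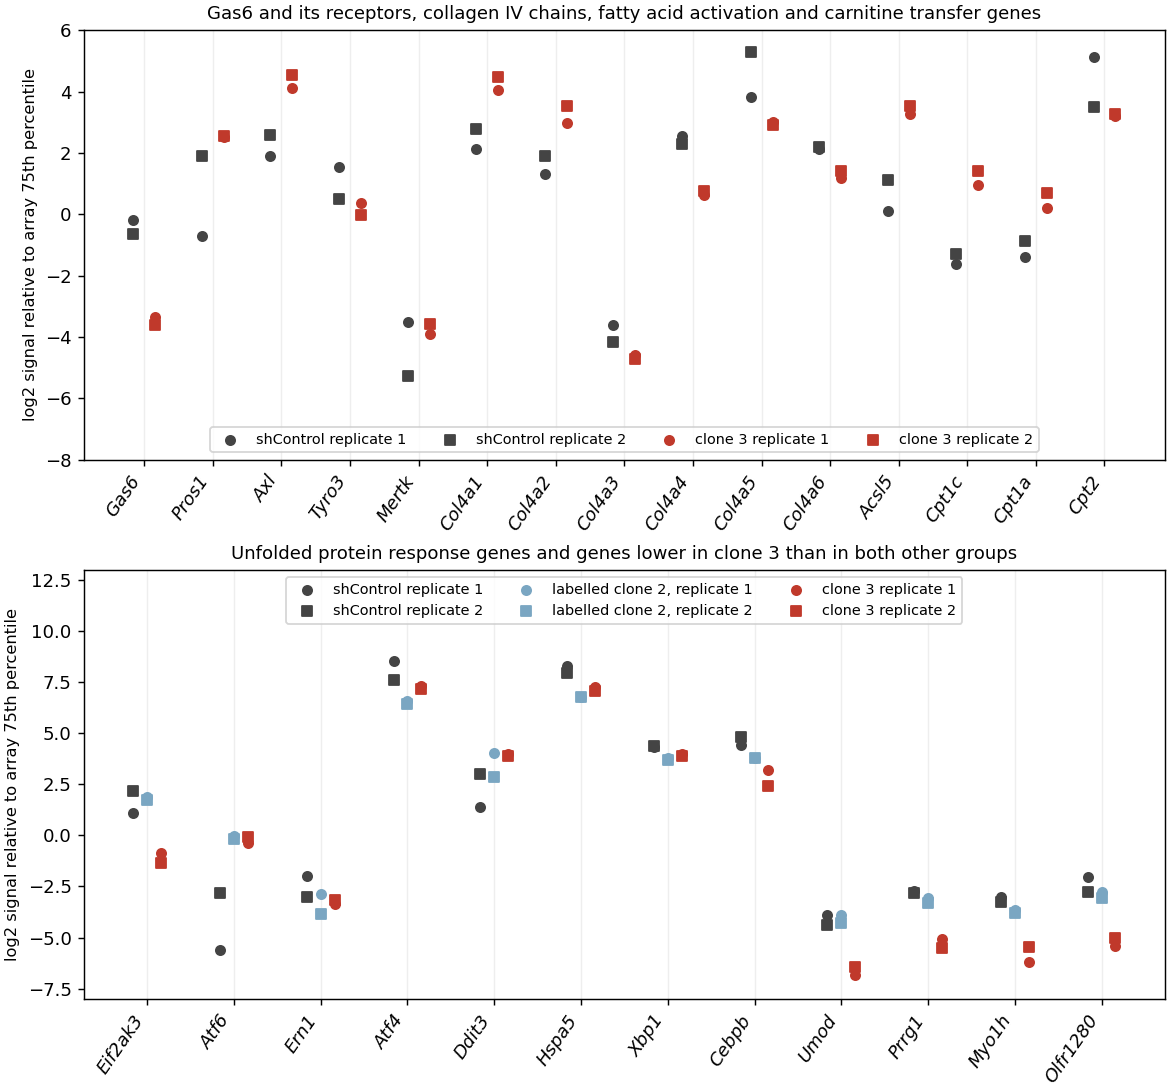
Upper panel, level on the 4 arrays of Gas6, Pros1 and the TAM receptors, the 6 collagen IV chains and genes of fatty acid activation and the carnitine transferases; lower panel, level on all 6 arrays of unfolded protein response genes and of 4 genes lower in clone 3 than in both other groups. The vertical axes are log2 signal relative to the array's 75th percentile, with grey for shControl, red for clone 3 and blue for the arrays labelled clone 2. Gas6 and Axl, and Col4a4 and Col4a2, differ in opposite directions, and for Eif2ak3 the blue points lie among the grey ones.

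Of the genes around the PGC-1α axis and mitochondrial DNA, 3 of 26 rose and 1 fell, against 4.35% and 4.68% of all genes. Tfam, which packages and transcribes mitochondrial DNA, read −3.73 and −1.08 in shControl and 0.56 and 0.67 in clone 3. The clone 3 pair agreed closely and the controls did not, so the rise of 3.02 had a large error (SE 0.75, limma adjusted p = 0.0477). Polg, the catalytic subunit of the mitochondrial DNA polymerase, was tighter, at −1.20 and −1.30 against 0.54 and 0.77, and rose by 1.91 (SE 0.34, limma adjusted p = 0.0289). Twnk, the replicative helicase, was at least 1.19-fold higher, but it was dim on both shControl arrays. With the normexp correction the Twnk difference was only 2.0e-04. Mterf1a, a mitochondrial transcription terminator, fell from 1.40 and 0.99 to −0.76 and −0.59. Ppargc1a was well above background on 1 shControl array by 1 of its probes (−4.06, −4.38, then −5.95 and −5.84) and on no clone 3 array, and it was not tested.

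Few respiratory chain genes passed, against 4.35% of all genes that rose and 4.68% that fell. Of 37 complex I genes 1 rose, Ndufs8, an iron-sulfur subunit, from 0.85 and 0.68 to 2.44 and 2.80 (limma adjusted p = 0.0302), and 0 fell, with a median of −0.84. Of 41 genes of complexes II to V 0 passed by limma (17 at an unadjusted p under 0.05), with a median of −0.75. After quantile normalization these medians were −0.10 and −0.02, against −0.15 for all genes, and 2 genes of each list then rose. Both lists hold bright genes. Mitochondrial ribosomal proteins had 8 rises and 0 falls in 75 genes, led by Mrpl37, Mrpl9 and Mrps9 with rises of 3.03, 3.00 and 2.68. Mrpl1 was among the tightest, at −2.32 and −1.60 against 0.38 and 0.38, while the list's median of −0.63 lay below that of all genes.

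Genes of the pyruvate and 2-oxoglutarate dehydrogenase complexes and the citrate cycle had 5 rises and 1 fall in 27. The rises were Pdha1, Dld, Suclg2, Idh3a and Dlst, and the fall was Pdhx. Dlst (2.40 and 2.03 against 3.62 and 3.65) and Idh3a (0.81 and 1.20 against 2.71 and 3.01) had close pairs. Dld, the subunit shared by all 2-oxoacid dehydrogenases, went from −2.55 and −0.78 to 1.46 and 2.38. Pdhx, which anchors that subunit in the pyruvate complex, went from 1.96 and 1.38 to 0.06 and 0.15, opposite to Pdha1 and Dld. Pdhb and Dlat of the same complex also read below both controls, by −0.93 and −0.27, without passing. Outside the cycle, Mfn2, the outer membrane fusion protein mitofusin 2, rose from 1.07 and 1.28 to 2.71 and 2.94 (1.65, SE 0.33, limma adjusted p = 0.0328).

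Of 30 fatty acid oxidation genes 4 rose, Acsl5, Cpt1c, Cpt1a and Slc25a20, and 0 fell. Acsl5, which couples long-chain fatty acids to coenzyme A, read 0.11 and 1.12 in shControl and 3.27 and 3.54 in clone 3, a rise of 2.79 (SE 0.42, limma adjusted p = 0.0249). Cpt1c, the isoform of the endoplasmic reticulum best known from neurons, read −1.62 and −1.30 against 0.95 and 1.39, a rise of 2.63 (SE 0.35). Cpt1a, the rate-limiting enzyme in most tissues, rose by 1.57 at its brightest probe, from −1.38 and −0.86 to 0.19 and 0.70. A second Cpt1a probe measured on all 4 arrays went the other way, from −0.87 and −1.86 to −2.89 and −2.74, so the direction for Cpt1a differs by probe. Slc25a20, the carnitine-acylcarnitine carrier, rose by 1.36, while Cpt2, which completes the transfer, read −1.08 without passing. Without shControl replicate 1, 2 of the 30 still passed as higher.

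In glycolysis 3 of 26 genes rose and 1 fell. Pgk1, phosphoglycerate kinase, was one of the brightest genes to rise, at 2.86 and 3.98 in shControl and 6.46 and 6.33 in clone 3 (2.98, SE 0.43, 7.89-fold, limma adjusted p = 0.0249). Pfkl, the liver isoform of phosphofructokinase, rose from −0.77 and −0.65 to 1.47 and 1.65. Pfkp, the platelet isoform, rose by 2.42 with 1 of 2 shControl arrays well above background, and another Pfkp probe read −1.30. Pfkfb3, which makes the activator of that step, fell from 4.70 and 3.67 to 1.93 and 2.16.

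Of 35 antioxidant and glutathione genes 4 rose and 2 fell. Gclm, the regulatory subunit of the rate-limiting ligase, rose from −2.36 and −1.30 to 0.96 and 1.26 (2.94, SE 0.43, limma adjusted p = 0.0249), and Gss, which completes synthesis, by 3.81. Gsta4, the transferase for lipid aldehydes, was at least 4.55-fold higher, and Gpx1 (5.07 and 4.96 against 6.44 and 6.43) rose by 1.42 among the brightest genes. The abundant transferases Gstm1 and Gstm2 fell by 1.76 and 2.18, from 7.23 and 6.27 to 5.06 and 4.92 and from 7.79 and 6.62 to 5.10 and 4.97. A dimmer probe of each went up instead, by 1.52 and 1.23, and since the copies of this gene family are near-identical their levels are uncertain. Of 38 sterol and fatty acid synthesis genes 6 rose and 1 fell. Fdft1, squalene synthase, went from −3.48 and −1.90 to 0.25 and 1.13, and Insig1, which restrains the pathway, from −3.44 and −2.91 to −4.51 and −5.04. Without shControl replicate 1 that list had 2 rises.

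Of 42 proteasome subunits 7 rose and 0 fell: Psma6, Psmd11, Psma4, Psmb1, Psmd13, Psmd8 and Psmd6, by 1.49 to 2.49. Psmb1, a catalytic-ring subunit, read 2.44 and 2.93 in shControl and 4.60 and 4.57 in clone 3. The median of all 42 was −0.06, above the −0.46 of all genes, and 6 rose without shControl replicate 1.

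Of 52 lysosomal genes 6 rose and 0 fell, and their median, 0.17, was the highest of the lists. Gusb, β-glucuronidase, rose with close pairs, 0.25 and −0.04 against 2.25 and 2.27 (2.15, SE 0.33, limma adjusted p = 0.0249). The proton pump subunits Atp6v1h and Atp6v0d1 rose with it. Other pump subunits differed in both directions without passing, among them Atp6v1e1 by 1.80 and Atp6v0a1 by −1.05. Atp6v0d1 read 0.47 and 2.42 in shControl and 4.11 and 4.18 in clone 3.

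Of 30 autophagy genes 7 rose and 0 fell, with 4 rises without shControl replicate 1 and 3 after quantile normalization. Becn1 (beclin 1) and the protease Atg4b were well above background on 1 of 2 shControl arrays each, at −4.76 and −2.08 against −0.19 and −0.05 for Becn1. Calcoco1, a receptor for selective autophagy, was tighter, at −1.39 and −1.32 against 0.19 and 0.65. Optn, another receptor, was at least 2.00-fold higher by the floor, but its sign turned with the normexp correction.

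Translation initiation factors had 7 rises and 1 fall in 42. Eif4g2 (−1.57 and −0.53 against 1.77 and 2.52) and the eIF3 subunit Eif3f (0.74 and 1.90 against 4.30 and 4.24) rose by 3.19 and 2.95. Eif4a2 fell from 6.93 and 6.31 to 4.88 and 4.95, while its exon junction relative Eif4a3 rose by 3.15; another Eif4a2 probe differed by −0.26. Chaperones of new proteins had 4 rises and 0 falls in 28 genes: Cct3, Hspa9, Pfdn1 and Hsph1. Of 82 cytosolic ribosomal protein genes only Rps7 rose (4.27 and 4.10 against 5.69 and 5.83) and only Rpl22l1 fell, with a median of −0.88 that became 0.03 after quantile normalization, when 5 rose and 0 fell. At an unadjusted p under 0.05 there were 46, of which 42 were lower. As these genes share sequence with many pseudogenes, single members are uncertain.

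Among the sensors of the unfolded protein response, Eif2ak3, which encodes the kinase PERK, fell in clone 3 and the others did not. Eif2ak3 read 1.10 and 2.17 in shControl and −0.86 and −1.37 in clone 3. All arrays were well above background, and the gap between the groups exceeded the gap between the controls. The fall was 2.75 (SE 0.44, 6.74-fold, limma adjusted p = 0.0249), and 2.39 to 2.53 under the other scalings. The arrays labelled clone 2 read 1.85 and 1.74, within the range of the controls, so that clone 3 was also lower than clone 2, by −2.92 (SE 0.44, limma adjusted p = 0.0292). This second comparison lies within 1 slide. On the authors' deposited log2 values 0 genes passed as lower in it by limma, so the Eif2ak3 pass against clone 2 was not kept there. A single probe on the array reports Eif2ak3.

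The transcription factor sensor Atf6 rose by 4.00, with 1 of 2 shControl arrays well above background (−5.60 and −2.81 against −0.35 and −0.07), and the third sensor, Ern1 (IRE1α), differed by −0.74 without passing. Downstream of PERK, Atf4 (8.54 and 7.62 against 7.31 and 7.19) and Ddit3 (CHOP; 1.38 and 3.00 against 3.97 and 3.87) lay on opposite sides of shControl and neither passed (limma adjusted p = 0.170 and 0.0939). The chaperone Hspa5 differed by −0.94 and Xbp1 by −0.42. Of 38 genes of the list 4 rose (Atf6, Sel1l, Pdia3 and Atf3) and 2 fell (Eif2ak3 and Cebpb), and after quantile normalization 1 rose and 1 fell. The direction of Atf6 and Eif2ak3 was the same under quantile normalization, median scaling and normexp.

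Against both other groups at once, few genes stood apart in clone 3: 4 were higher (0.0186% of the genes tested) and 16 lower (0.0745%). Both contrasts use the same clone 3 arrays. Among the lower genes, Cercam, Gp1bb, Mbd3l1, Odaph, Ppp4r1l-ps, Rsbn1l, Shprh and Tia1 were dim on both shControl and both clone 3 arrays. They entered the test through clone 2 alone, so their fall against shControl was not measured. Among the higher genes, Dcx, Slc44a5 and Klhl34 entered through clone 3 alone. Of the 20 genes, only Eif2ak3 and an unnamed transcript (ENSMUST00000125115) were well above background on all 6 arrays. That transcript read 0.76 and 1.16 in shControl, −2.08 and −1.55 in clone 3, and 0.77 and 0.60 where the label is clone 2. Prrg1, a membrane protein with a vitamin K-dependent domain, was at least 5.68-fold below shControl and 4.26-fold below clone 2 by its brightest probe. A second Prrg1 probe, measured on both shControl and both clone 3 arrays, differed from shControl by −0.81 and read higher in clone 3 (−3.92 and −3.95) than in clone 2 (−6.02 and −4.13, the first dim), so the pattern differs by probe. Myo1h was at least 4.91-fold and 3.28-fold lower. Umod, the tubular protein uromodulin, was well above background on 1 of 2 shControl arrays (−3.90 and −4.38) and both labelled clone 2 (−3.91 and −4.27), and at −6.84 and −6.42 in clone 3 on none. Of the 4 higher genes, Dcx (doublecortin, a microtubule protein of migrating neurons) had the largest bound against clone 2, at least 3.20-fold, and read −3.45 and −4.53 in clone 3. With the normexp correction its difference from shControl was −0.29, and the other higher genes, Slc44a5, Klhl34 and an unnamed transcript, also turned negative. Set directly against clone 2, clone 3 had 74 genes higher (0.345%) and 198 lower (0.922%). Clone 2 against shControl had 2197 higher (10.2%) and 7255 lower (33.8%); it shares the control arrays with the clone 3 comparison.

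Cell cycle genes had 6 rises and 2 falls in 48, against 4.35% and 4.68% of all genes. Podocytes are known as cells that leave the cycle when they mature. The D-type cyclins Ccnd1 (3.49 and 4.49 against 6.49 and 6.79) and Ccnd2 (1.12 and 2.00 against 3.83 and 3.82) rose by 2.65 and 2.27 (limma adjusted p = 0.0249 and 0.0281). Their inhibitor Cdkn1b (p27) fell from 2.40 and 2.38 to 0.37 and 0.27, by 2.06 (SE 0.33, limma adjusted p = 0.0249), with a close pair on each side. Cdkn2a, which encodes p16 and p19Arf, fell from 7.79 and 6.81 to 5.62 and 5.33, but did not pass without shControl replicate 1 (0.0917), and its fall was 1.12 after quantile normalization. The mitotic genes Cenpa and Top2a were at least 5.16-fold and 2.09-fold higher, Bub1b rose with 1 of 2 shControl arrays well above background, and Cdc25b rose by 1.47. The median of the list was −0.30. Of 29 p53 targets Ei24 was the only one to pass.

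Of 34 NF-κB target genes 1 rose and 2 fell, and of 42 interferon response genes 0 rose and 1 fell, beside 4.35% and 4.68% of all genes. At an unadjusted p under 0.05 the NF-κB list had 14 genes, 7 of them lower. The interferon list had 23 of 42 at that threshold, 16 of them lower, beside 35.8% of all genes in either direction. C3, the central complement component (2.75 and 2.28 against 0.44 and 0.45), and Lcn2, the iron-binding lipocalin that marks injured kidney (3.22 and 2.01 against 0.11 and −0.09), fell by 2.07 and 2.61. Csf3 was called higher from dim shControl arrays, with a bound of 1.12-fold. Csf1r, the macrophage growth factor receptor, read 4.07 and 2.71 against 0.87 and 0.96 and fell by 2.47, although another of its probes differed by less than 0.01. Itgam (CD11b) fell by 1.94, with other probes at −0.54 and −0.33. The interferon response gene that fell was the RNA sensor Ddx58 (RIG-I), by 1.55, with a second probe at 0.20. The median of the interferon list was −0.77.

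Of 22 genes of polycomb repressive complex 2 and its partners, a complex to which Tug1 has been reported to bind, Rest was at least 3.69-fold higher, and Aebp2 and Rbbp4 fell by 1.48 and 1.38. The second probes of Aebp2 and Rbbp4 differed by −0.24 and 1.70, and 0 of the list fell without shControl replicate 1. Of the 16 genomic neighbours of Tug1 tested 1 fell, the secreted phospholipase Pla2g3 (−1.50 and −2.41 against −3.55 and −3.69). At an unadjusted p under 0.05 there were 9 of the 16, all 9 lower, beside 35.8% of all genes in either direction. The neuronal cadherin Cdh2 was the only one of 30 junction and shape genes to pass, with a fall of 1.71 (7.43 and 6.75 against 5.16 and 5.62). Of 18 aldehyde dehydrogenases Aldh2 alone rose.

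Of the 124 genes that passed and were named by rule, 67 also passed without shControl replicate 1 and under each of quantile normalization, median scaling and normexp. These include Aldh2, Tjap1, Axl, Gas6, Col4a4, Loxl4, Acsl5, Cpt1c, Pgk1, Gclm, Mfn2, Polg, Ndufs8, Lmx1b, Foxc1, Cnn1, Actg2, Cdkn1b, C3 and Eif2ak3. A pass under at least 1 of the scalings was lost by 48. Pfkp and Sel1l passed under none of the other scalings. Tfam, Wt1, Tns3, Sqstm1, Cdr2, Kif1a, Kirrel, Pdha1, Suclg2, Bub1b, Cdkn2a, Cebpb, Rbbp4, Cct3, Psmd11, Mrpl37, Atp6v0d1, Becn1, Lss, Fads1 and Insig1 passed under 1, and so did Igfbp7. Without shControl replicate 1 a pass was lost by 31, among them Magi2, Cpt1a, Smurf1, Pdia3, Cebpb, Rest, Psma4 and Cdh2 beside those given above.

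**Figure D5:**
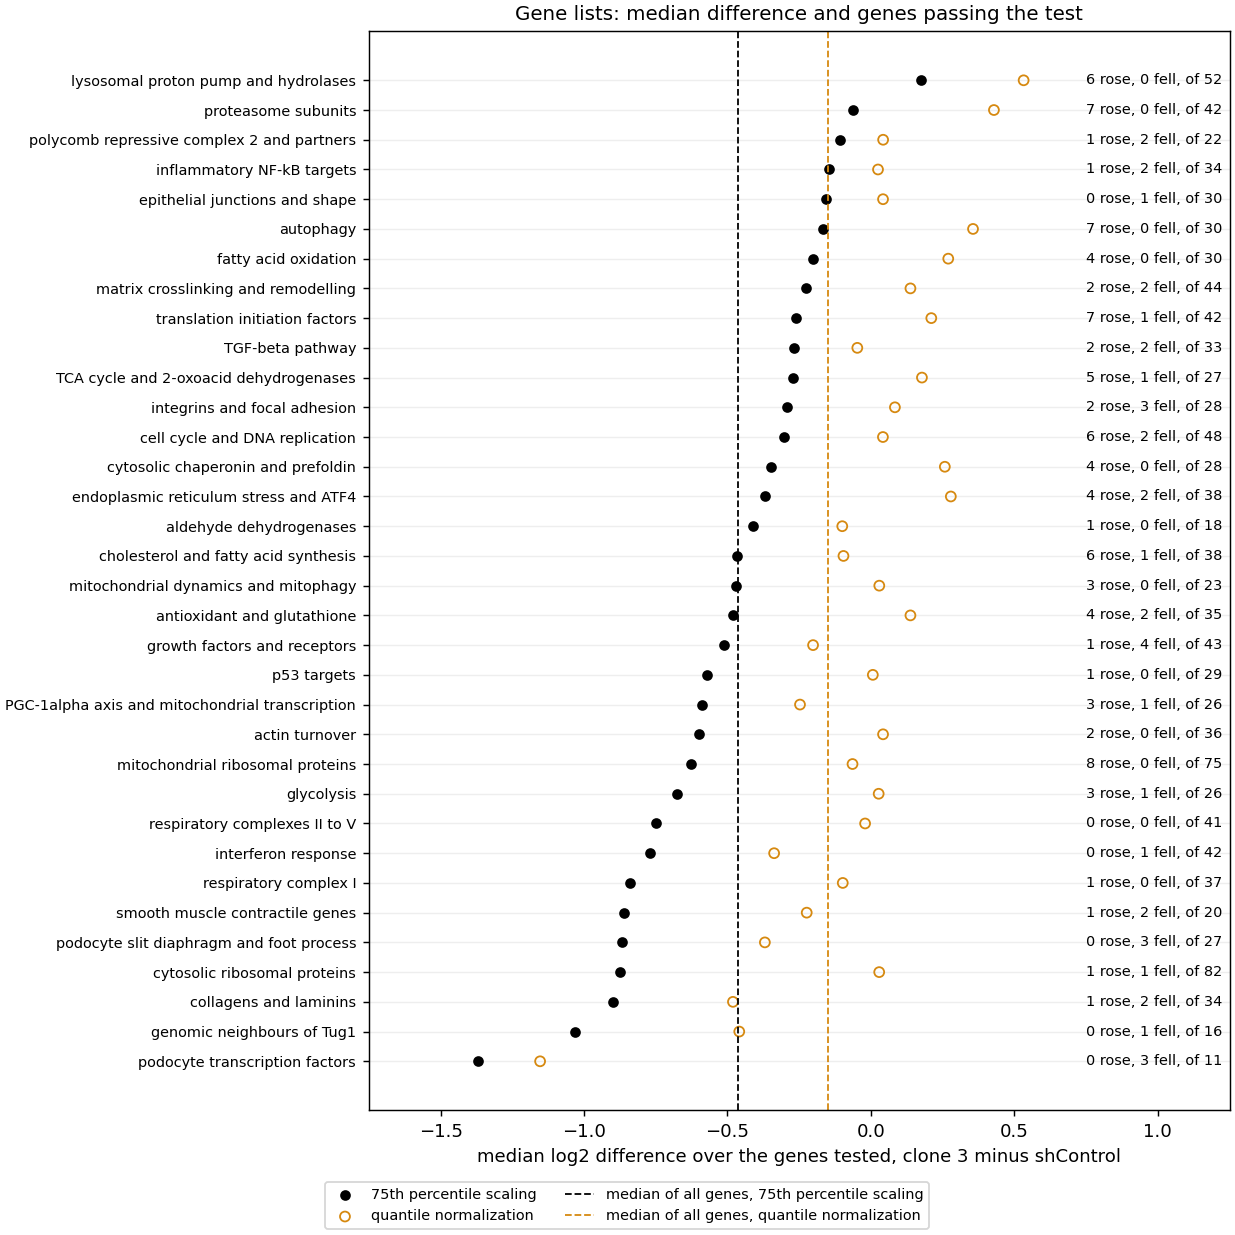
Median log2 difference of clone 3 minus shControl over the tested genes of each list (horizontal axis), as black points with 75th percentile scaling and open orange points with quantile normalization; the text at the right gives the genes that passed the limma test with 75th percentile scaling. The dashed lines mark the median of all genes tested, −0.46 and −0.15. Lysosomal genes lie highest with 6 rises in 52, and podocyte transcription factors lowest with 3 falls in 11.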

How the data were processed

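RNA from 6 podocyte cultures, described as biological replicates, was hybridised to 1-colour Agilent arrays. Per the file headers, the deposited processed intensity is background-subtracted and spatially detrended; per the submitters' processing notes, the authors' software was Agilent Feature Extraction 11.0.1.1. The authors' deposited series table holds log2 values whose normalization the labels and headers do not state. It tracked the scanner values of the same array (r from 0.998 to 1.00) and served as an alternative.

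Here log2 intensity minus each array's 75th percentile was used. Control and outlier-marked spots were left out, spots of a probe averaged, and probes kept where some group had both its arrays well above background (25559 of 39429 probes). The brightest probe stood for each of 21474 genes, of which 15085 have a RefSeq symbol matched by accession. limma 3.58.1 in R 4.3.3 fitted 3 group means to all 6 arrays (3 residual and 4.69 prior degrees of freedom), with two-sided tests adjusted by Benjamini-Hochberg over every gene tested, at 0.05. "Rose" and "fell" denote genes that passed. Where neither array of a group measured a gene, its fold is a bound that takes, on each dim array, the higher of the gene's signal and the lowest signal there that was well above background. The code was tested on simulated data. The number of arrays limits the precision.

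Genes named were the study's own (Tug1, Ppargc1a, Tfam, Nphs1, Wt1, Synpo), the 12 largest rises and falls measured on all 4 arrays, up to 4 bounded ones, those apart from both other groups, and up to 3 per direction from each of 38 lists; other list members were named after their values were seen. The comparison, the genes and the lists were chosen with earlier results of these data known. Some members of the lists are counted but not reported here by name.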

Additional observations from a re-analysis of the deposited data

Results flagged for a closer look

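Of the 272 genes that differed between the clones by limma, 7 are named by rule or belong to a list: Eif2ak3, Umod, Zhx1, Asah1, Vcl, Wasl and Aqp2. They were singled out because their difference from shControl was not alike in the clones, by a test of the difference itself. Eif2ak3 and Umod also passed against shControl in clone 3, and the other 5 did not. Eif2ak3 was lower in clone 3 than on the arrays labelled clone 2 by −2.92 on the log2 scale (limma adjusted p = 0.0292), with clone 2 differing from shControl by 0.16. Umod was lower in clone 3 than on the arrays labelled clone 2 by −2.54 (limma adjusted p = 0.0275), with clone 2 differing from shControl by 0.05. Umod was not well above background on either clone 3 array, so its difference is at least 2.95-fold and the fitted value is no bound. Zhx1, a podocyte transcription factor gene, read −7.20 and −7.78 in clone 3, both dim, and −0.37 and −0.66 on the arrays labelled clone 2, a fitted difference of −6.98 (limma adjusted p = 0.0232) that is at least 35.2-fold. Of its controls, −2.97 was well above background and −6.30 was dim, so the dim control and clone 3 cannot be ordered. Against shControl it was at least 2.03-fold lower in clone 3, without passing, and differed by a fitted 4.12 in clone 2. For Asah1 (acid ceramidase), Vcl (vinculin) and Wasl (N-WASP) clone 3 was close to shControl and clone 2 was above it, with clone 3 minus clone 2 at −4.74, −3.68 and −3.15. For Aqp2 (aquaporin 2) clone 3 was again close to shControl and clone 2 below it, at 2.56. Groups of 2 arrays are too small for a test of outlying samples.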

How the results depend on the processing

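Counts in this section are given as higher and then lower. For clone 3 against shControl (934 and 1004), normexp gave 1431 and 5421, no filter on dim probes 301 and 316, median scaling 1019 and 667 and the stricter filter 999 and 1982. Leaving out 1 array gave 0 to 2748 and 0 to 8978. The 0 came without either clone 3 array (limma, with 4089 and 3397 genes at an unadjusted p under 0.05), where the lone array is assumed to vary like the others, and the high values came without shControl replicate 2. Tug1 passed under none of the 15 alternatives (−0.68 to −0.23). Of the named genes tested, 31 no longer passed without shControl replicate 1, 37 after quantile normalization and 26 after median scaling. Under normexp 4 rises turned negative: Optn (−0.077), Tpm2 (−0.48), Mmp2 (−0.41) and Csf3 (−0.41), all dim in shControl.

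For clone 3 apart from both other groups (4 and 16), quantile normalization gave 4 and 3, median scaling 7 higher, normexp 0 and 67, no filter 0 and 0, the stricter filter 0 and 4, the deposited series values 0 and 0, and single arrays left out 0 to 13 and 0 to 171. For clone 3 against clone 2 (74 and 198), quantile normalization gave 19 and 40, normexp 42 and 329, no filter 24 and 57, the stricter filter 6 and 29, the deposited series values 0 and 0 (limma, with 2462 genes at an unadjusted p under 0.05), all probes 377 lower, the arrays of these groups alone 121 and 388, and single arrays left out 0 to 589 and 0 to 540. The causes were not tested.

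Replicate numbers are shared by the groups, but same-numbered arrays did not clearly deviate together (r = 0.11 for shControl and clone 3, −0.04 for shControl and clone 2, −0.09 for the clones). With a replicate block the counts were 1166 and 1346 against shControl, 7 and 38 apart from both, and 345 lower than clone 2. The normexp correction used the median spot signal, an alternative chosen after seeing the data, because the planned one on the mean spot signal was not run.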

Other observations

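Foxi3, the next tested gene after Eif2ak3 in chromosome order, also fell in clone 3, by 1.67 against shControl (limma adjusted p = 0.0462). Its pass held under only 1 of quantile normalization, median scaling and normexp. Without shControl replicate 1 its difference was −1.22. Its clone 3 arrays (−3.96 and −3.71) lay below both arrays labelled clone 2 (−2.95 and −3.28) and both controls, and the difference from clone 2, −0.72, did not pass (limma adjusted p = 0.385). Rpia, ribose-5-phosphate isomerase, the tested gene before Eif2ak3, differed from shControl by 1.90 (limma adjusted p = 0.0747). Beyond Rpia, 4930515G16Rik differed from shControl by −1.16 and from clone 2 by −0.43, neither passing. Il23r, Rpl34-ps1 and Thnsl2, farther off, differed from shControl by −0.67, −1.05 and 0.80 without passing. Neighbours were taken from the gene order of a RefSeq annotation, and positions on the array's own build were not used here.

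Probes of the same gene often gave different answers. Among the genes named, 36 had a further probe measured on both shControl arrays or on both clone 3 arrays, 39 such probes in all. Of these 12 had the opposite sign to the brightest probe, and 24 differed from it in sign or by more than 1 on the log2 scale. Gstm1, Gstm2, Cpt1a, Pfkp and Synpo were among the opposite ones.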
